A study of Arabidopsis thaliana with 12 samples.

Results

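The genotype by chitooctaose interaction is the response of a chitin receptor mutant of Arabidopsis thaliana minus the response of wild type, taken for each probe set as (mutant chitooctaose minus mutant water) minus (wild type chitooctaose minus wild type water). All 12 one-colour Affymetrix arrays of the series enter it, 3 in each of 4 groups titled as biological replicates: mutant with chitooctaose, mutant with water, wild type Col-0 with chitooctaose and wild type Col-0 with water. Both genotypes were Col-0 whole seedlings grown for 14 days in liquid MS medium under constant light at 23 degrees, then given chitooctaose at 1 um (read here as micromolar) or water for 30 minutes. The labels name neither the mutant allele nor how many lines carried it, and they do not say whether replicates came from separate cultures, so p-values measure the spread between these arrays. Of 22746 probe sets tested, 2565 (11.3%) had a called interaction, meaning a limma adjusted p under 0.05 (Benjamini-Hochberg over all probe sets, two-sided).

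Chitin is the polymer of fungal cell walls, and chitooctaose is a soluble fragment of it. In Arabidopsis such fragments are perceived at the cell surface by receptors with LysM domains, among them the kinase CERK1, which pass the signal to cytoplasmic kinases, MAP kinases and calcium influx and on to transcription factors such as WRKY proteins. No probe set is tied to CERK1 in the annotation used, so the genotype labels were not checked by that transcript.

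Each array gave 1 linear intensity per probe set, with array medians between 177.7 and 200.8, and arrays of 1 group correlated at r from 0.984 to 0.993 across probe sets. Responses and interactions are differences of mean log2(intensity + 16), which understates the fold change of dim genes, and unless marked SD, a value after ± is the standard error that limma gave with 3 arrays per group. The 3' to 5' ratio of the actin control ran from 4.96 to 8.83 in mutant chitooctaose, 5.77 to 6.54 in mutant water, 5.55 to 6.86 in wild type chitooctaose and 5.89 to 7.14 in wild type water. That of GAPDH ran from 1.15 to 1.18 in mutant chitooctaose, 1.12 to 1.203 in mutant water, 1.24 to 1.40 in wild type chitooctaose and 1.13 to 1.30 in wild type water, so wild type chitooctaose, the group that stood apart in most lower interactions, lay above both mutant groups and overlapped wild type water. The 25S rRNA control probe set differed in mean between groups: it averaged 4312 ± 1478 in mutant chitooctaose against 1640 ± 503 in mutant water, and 1699 ± 870 in wild type chitooctaose against 2522 ± 767 in wild type water (SD, n = 3 each). Its arrays did not overlap between the mutant groups but did between the wild type groups. The part of either control in the results was not tested. In whole seedlings, fewer cells of a type and less RNA per cell cannot be told apart.

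Every probe set was placed by 3 calls, the wild type response, the mutant response and the interaction, so the classes describe these calls and carry no test of their own. Chitooctaose changed 1.49% of all probe sets in the mutant (0.721% rose and 0.769% fell) and 18.9% in wild type (8.82% rose and 10.1% fell). Lost responses made up 2163 of the 2565 interactions (84.3%): called in wild type, not called in the mutant, with an interaction opposite to the wild type response. They were 50.3% of the 4298 responses called in wild type. A lost response was not called in the mutant, which does not show that it was absent. Treated and water arrays of the mutant did not overlap, in either direction, in 360 of 1290 lost rises and 287 of 873 lost falls. Over all probe sets 18.5% had this. Reduced responses, called in the same direction in both genotypes but smaller in the mutant, numbered 52 (2.03%), and reversed ones, called in opposite directions, 61 (2.38%). The rest were 63 gained (called in the mutant and not in wild type), 223 with neither response called, and 3 enhanced, none of these 3 tied to 1 gene. Outside the interactions, 113 responses were kept, called in the same direction in both genotypes without a called difference, and 1906 wild type responses were unresolved, with neither a mutant response nor a difference called. Kept responses were 2.63% and unresolved ones 44.3% of the responses called in wild type.

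**Figure D1:**
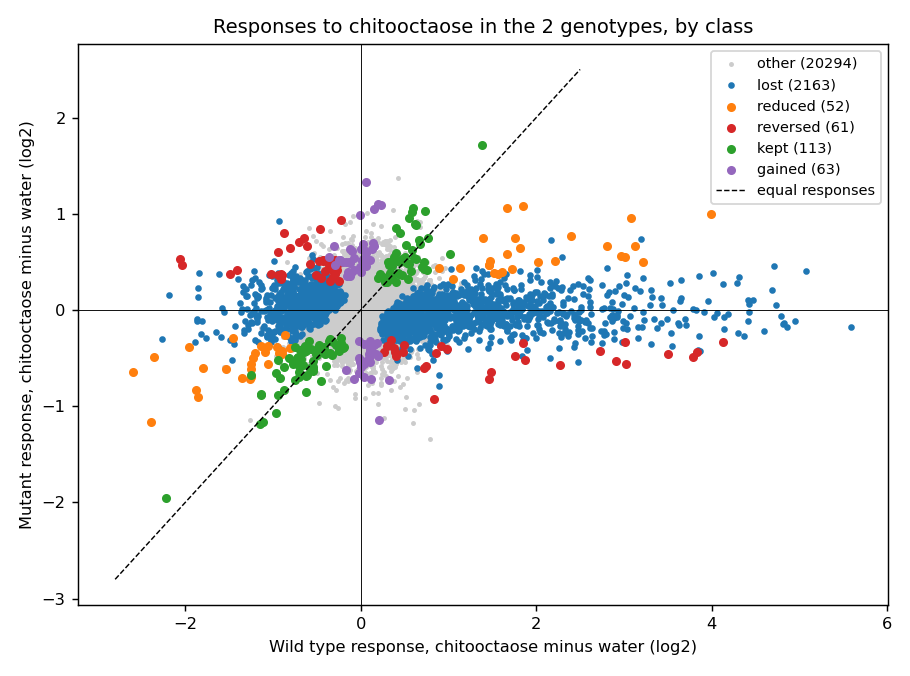
Wild type response (x axis) against mutant response (y axis) of the 22746 probe sets, both chitooctaose minus water on the log2 scale; colours mark the response classes. The 2163 lost responses lie along the horizontal axis, and the 113 kept responses lie around the dashed line of equal responses.

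Negative interactions were larger than positive ones. The 1505 lower ones had a median of -0.87 and reached -5.77, and the 1060 higher ones had a median of 0.64 and reached 2.59, where the median over all probe sets was 0.02. At least 2-fold were 644 lower and 166 higher. Lower ones made up 58.7% of the calls on the deposited scale and 44.9% after quantile normalization, so the split by direction depends on the scaling. The median interaction over all probe sets was 0.06 under quantile normalization. Without wild type chitooctaose replicate 1 there were 3215 calls, 2079 of them lower, and without wild type water replicate 2 there were 2029, 689 of them higher.

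The 2 directions also differed in which group of arrays stood apart. Among lower interactions, 790 (52.5%) had all 3 wild type chitooctaose arrays above the other 9, and 142 (9.44%) had all 3 wild type water arrays below the other 9. Among higher interactions, wild type chitooctaose lay below the other 9 in 306 (28.9%) and wild type water lay above them in 296 (27.9%), so these counts were nearly equal. Over all probe sets the shares, in either direction, were 1.69% for mutant chitooctaose, 2.62% for mutant water, 10.6% for wild type chitooctaose and 6.42% for wild type water. A mutant group alone stood apart in few: mutant chitooctaose in 38 higher and 28 lower interactions, and mutant water in 29 and 28. In water the mutant was below wild type in 525 of the 1060 higher interactions (median -0.31), where 6.3% of all probe sets were called lower, and above it in 34. For the 1505 lower interactions the mutant in water was called higher in 350 and lower in 145 (median 0.10). Over all probe sets 10.3% were called in water, 4.03% higher in the mutant. With chitooctaose the mutant was called higher in 566 and lower in 53 of the 1060 (median 0.32), and higher in 27 and lower in 1173 of the 1505 (median -0.84), where 7.77% of all probe sets were higher and 9.5% lower. Both comparisons use arrays that are also part of the interaction, so these values describe its makeup.

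**Figure D2:**
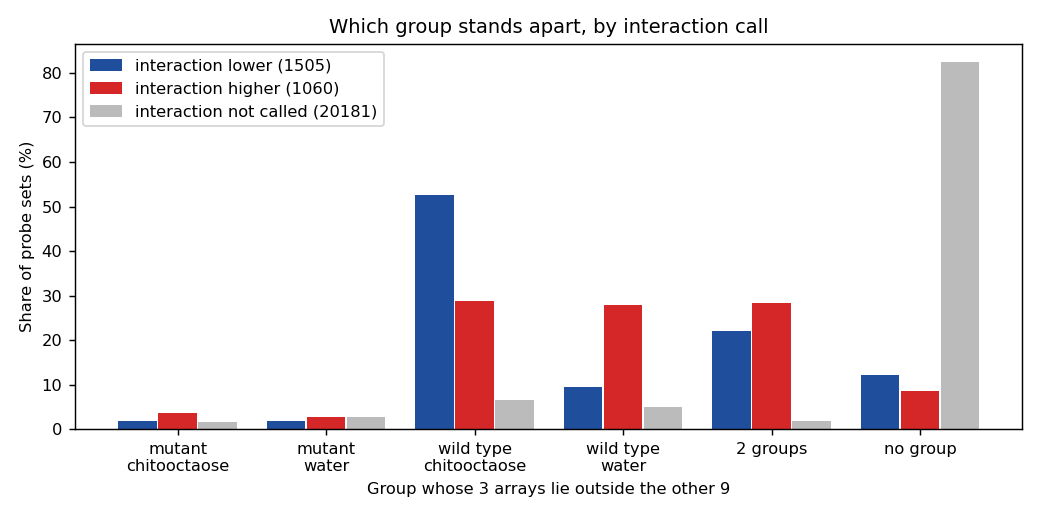
Share of probe sets (y axis, %) by the group whose 3 arrays all lie outside the range of the other 9 arrays (x axis), for lower, higher and not called interactions. Lower interactions mostly had wild type chitooctaose apart (52.5%), and higher ones had wild type chitooctaose (28.9%) or wild type water (27.9%) apart.

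The lost rises took in signalling and transcription genes with the steepest interactions. AT1G07160, coding for a protein phosphatase 2C, had an intensity of 41.9, 27.3 and 20.5 on the mutant chitooctaose arrays against 25.9, 42.3 and 38.7 in mutant water. In wild type it stood at 1715, 1846 and 1895 with chitooctaose against 11.3, 25.4 and 32.8 in water. The mutant groups overlapped and the wild type groups were far apart. Its interaction was -5.77 ± 0.28 (adjusted p = 1.5e-10), and its mutant response of -0.18 had a 95% interval from -0.61 to 0.24. AT1G24140, a matrix metalloproteinase gene, and AT1G66090, coding for a TIR-NBS protein, had interactions of -5.04 ± 0.25 and -4.97 ± 0.16. AT1G24140 was higher in mutant water than in wild type water (0.79 ± 0.17, limma adjusted p = 0.0059). AT1G66090 read 97.5, 102 and 75.04 in mutant chitooctaose against 90.6, 99.9 and 115 in mutant water, and 2723, 3130 and 2747 in wild type chitooctaose against 84.3, 85.8 and 85.5 in wild type water. So 3 of the groups lay near one another and wild type chitooctaose stood alone.

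The transcription factor genes among the 6 largest lost rises also had wild type chitooctaose alone above the other arrays. WRKY53, which codes for a WRKY factor of senescence and defence, measured 53.1, 46.8 and 49.1 in mutant chitooctaose against 56.8, 52.9 and 72.9 in mutant water. Its wild type arrays gave 2684, 2506 and 2269 with chitooctaose against 92.3, 95.4 and 75.5 in water. Its wild type response was 4.59, and its mutant response of -0.22 had a 95% interval from -0.47 to 0.03. In water WRKY53 was lower in the mutant than in wild type (-0.44 ± 0.12, limma adjusted p = 0.023). AT3G12910, a NAC-domain gene, had an interaction of -4.86 ± 0.26, and CML37, coding for a calmodulin-like calcium sensor, one of -4.69 ± 0.25. Both were dim in the other 3 groups, with means between 13.9 and 32.6.

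How much of a response could remain was bounded by the mutant interval, taken over all wild type responses of at least 2-fold, whatever the mutant call. Of 624 such rises, 486 had an upper 95% limit of the mutant response under 25% of the wild type response on the log2 scale, and 607 had one under 50%. For the 130 falls these counts were 64 and 100. The mutant values had the direction of wild type in 304 of the 624 rises and in 83 of the 130 falls. By size of the wild type rise the median mutant response was 0.00 for 239 probe sets between 1 and 1.5, 0.00 for 149 between 1.5 and 2, -0.03 for 152 between 2 and 3, and -0.03 for 84 above 3. Falls left more: the medians were -0.07 for 102 probe sets between -1 and -1.5, -0.24 for 20 between -1.5 and -2, and -0.40 for 8 beyond -2, which was 17.1% of the wild type fall. The mutant arrays are not those that chose these bins, but with 8 probe sets the last one rests on little.

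**Figure D3:**
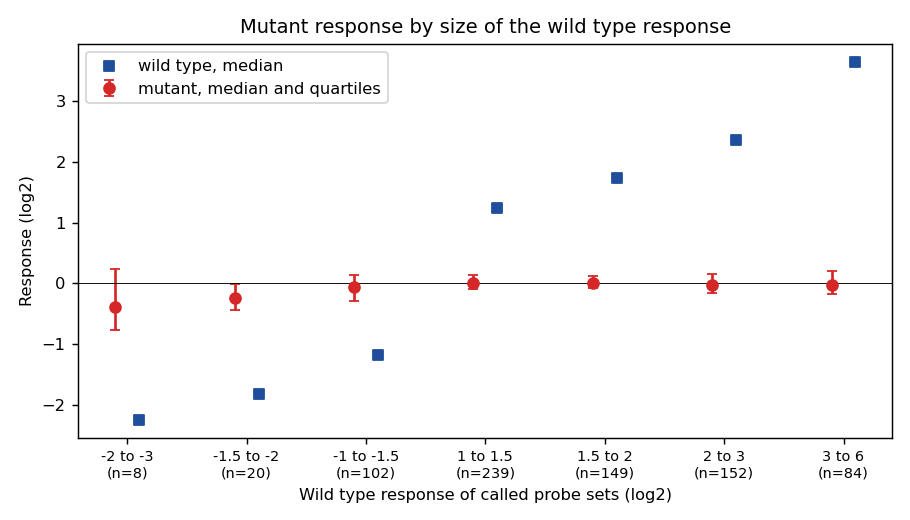
Median response (y axis, log2) of probe sets called in wild type, binned by their wild type response (x axis, log2, n per bin): circles with quartile bars are the mutant and squares are wild type. Mutant medians stay at 0.00 to -0.03 for rises and reach -0.40 in the bin of 8 largest falls.

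Lost falls had smaller interactions and mixed origins. AT2G36090, an F-box protein gene, read 491, 445 and 487 in mutant chitooctaose against 418, 338 and 372 in mutant water, and 176, 150.2 and 139 in wild type chitooctaose against 470.5, 441 and 392 in wild type water. Only wild type chitooctaose lay outside the other arrays, and the interaction was 1.73 ± 0.15 (adjusted p = 1.9e-07). The mutant groups did not overlap either, in the order opposite to wild type. That mutant response of 0.33 had a 95% interval from 0.10 to 0.55 but was not called (limma adjusted p = 0.18). AT4G02090 had the largest interaction of this class, 2.22 ± 0.24, with a different layout. It stood at 98.8, 101 and 126 in mutant chitooctaose against 55.2, 94.7 and 93.7 in mutant water, and at 47.3, 36.5 and 57.8 in wild type chitooctaose against 197, 200 and 231 in wild type water. Here wild type water was above all 9 other arrays, and the mutant in water was lower than wild type by -1.24 ± 0.17. The mutant response of AT4G02090, 0.38, had a 95% interval from 0.02 to 0.74 and was not called. WAG2, an AGC kinase gene of auxin transport, had 1.77 ± 0.14, AT5G39520 1.97 ± 0.16 and AT4G10910 1.69 ± 0.19, and each was below wild type in mutant water (-0.61, -1.25 and -0.78). The 95% interval of the mutant response ran from -0.54 to -0.07 for AT5G39520, whose mutant groups did not overlap. It ran from -0.30 to 0.13 for WAG2 and from -0.41 to 0.17 for AT4G10910. The sixth, AT3G57160, had 1.86 ± 0.32 on one probe set and -0.19 ± 0.15 (adjusted p = 0.51) on its other, so its probe sets disagree. On the first, the mutant response was 0.93 with a 95% interval from 0.45 to 1.41, against -0.93 in wild type. With a limma adjusted p of 0.053 it fell just short of a reversed response.

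Reduced responses kept a minor share of the wild type response. The 26 reduced rises had a median residual share, the mutant response as a percentage of the wild type response on the log2 scale, of 31.0% (quartiles 23.9 and 35.2), and the 26 reduced falls 42.6% (34.0 and 49.0). AT1G26380, an FAD-linked oxidoreductase of the berberine bridge family, had an intensity of 101, 111 and 100.1 in mutant chitooctaose against 47.3, 41.5 and 43.3 in mutant water, and of 783, 858 and 907 in wild type chitooctaose against 42.8, 41.6 and 31.6 in wild type water. The groups did not overlap in either genotype, and the baselines in water lay close together. The mutant response was 1.00 ± 0.11, 25.1% of the wild type one, and the interaction -2.99 ± 0.16 (adjusted p = 4.6e-10). AT2G32020, coding for a GNAT-type acetyltransferase, likewise started level, at 202 ± 2.75 in mutant water and 198 ± 17.9 in wild type water (SD, n = 3 each), and kept 24.8%.

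Other reduced rises began from unequal baselines. AT3G28580, an AAA-type ATPase gene, read 103, 132 and 111 in mutant chitooctaose and 105, 131 and 115 in wild type chitooctaose, so the treated groups overlapped. In water it read 49.6, 68.2 and 64.9 in the mutant and 12.8, 6.22 and 8.83 in wild type. Its interaction of -1.63 ± 0.22 thus went with a higher mutant level in water (1.60 ± 0.15). AT1G57630, a TIR-domain gene, and AT3G60420, on the brighter of its 2 probe sets, were also higher in mutant water (1.06 and 1.66), with interactions of -2.46 ± 0.18 and -2.14 ± 0.20. AT2G18690 (-1.29 ± 0.12) was lower there (-0.48). Of the reduced rises, AT3G60420 left the class in 6 of 12 fits without an array, AT2G18690 in 5, and AT1G57630, AT3G28580 and AT2G32020 in 3 each.

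The reduced falls were led by AT2G20670, a gene of the DUF506 family. It measured 998, 1162 and 951 in mutant chitooctaose against 1643, 1509 and 1739 in mutant water, and 324, 457 and 429 in wild type chitooctaose against 2537, 2599 and 2344 in wild type water. Every treated array lay below every water array of its own genotype, and the mutant kept 25% of the fall. AT1G04770 (interaction 1.86 ± 0.11), the zinc finger gene AT2G28200 (1.57 ± 0.12) and AT5G59080 (1.19 ± 0.17) kept 20.9%, 19.7% and 33.5%. Of these 4, AT2G28200 left the class in 6 of the 12 fits without an array and AT5G59080 in 2.

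Reversed responses were mostly small in the mutant. The 28 that rose in wild type had a median mutant response of -0.45, and the 33 that fell there one of 0.47. AT2G25735, an uncharacterised gene, read 277, 295 and 293 in mutant chitooctaose against 445, 405 and 417 in mutant water, and 3747, 3778 and 4208 in wild type chitooctaose against 507, 504 and 512 in wild type water. Its mutant groups did not overlap (18.5% of all probe sets have this), its mutant response was -0.53 ± 0.07 (adjusted p = 0.00083) and its interaction was -3.43 ± 0.10. AR781 had an interaction of -4.28 ± 0.14 with a mutant response of -0.44 ± 0.10 (adjusted p = 0.028). The TIR-NBS gene AT1G72920 (-3.96 ± 0.14, mutant -0.45) and AT5G63130, coding for a PB1-domain protein (-2.13 ± 0.16, mutant -0.64), complete the 4 largest. AR781 and AT1G72920 each left the class in 4 of 12 fits without an array.

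Among genes that fell in wild type and rose in the mutant, UGT76B1 codes for a glucosyltransferase of isoleucic acid and salicylic acid. It measured 521, 520 and 468 in mutant chitooctaose against 335, 304 and 308 in mutant water, and 216, 282 and 263 in wild type chitooctaose against 451, 494 and 417 in wild type water. The treated and water arrays were apart in both genotypes, in opposite order, and the responses were 0.65 ± 0.10 in the mutant and -0.81 ± 0.10 in wild type. The interaction was 1.45 ± 0.14 (adjusted p = 9.8e-07), and UGT76B1 stayed in the class in all 12 fits without an array. PDF1.2, a plant defensin gene of the jasmonate and ethylene pathway, had 213, 220 and 256 in mutant chitooctaose against 113, 145 and 147 in mutant water, and 108, 105 and 121 in wild type chitooctaose against 194, 199.7 and 181 in wild type water. Both genes stood lower in mutant water than in wild type water (-0.50 and -0.47). So did most of this group: of the 33 that fell in wild type, 27 were called lower in mutant water and 2 higher (median -0.65). Over all probe sets 6.3% were called lower there. The water arrays also enter both responses, so these values describe the makeup of the class. AT5G03230, with the largest positive interaction of all genes named (2.59 ± 0.16), and AT2G37750 (1.40 ± 0.12) left the class in 5 and 4 of the 12 fits.

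**Figure D4:**
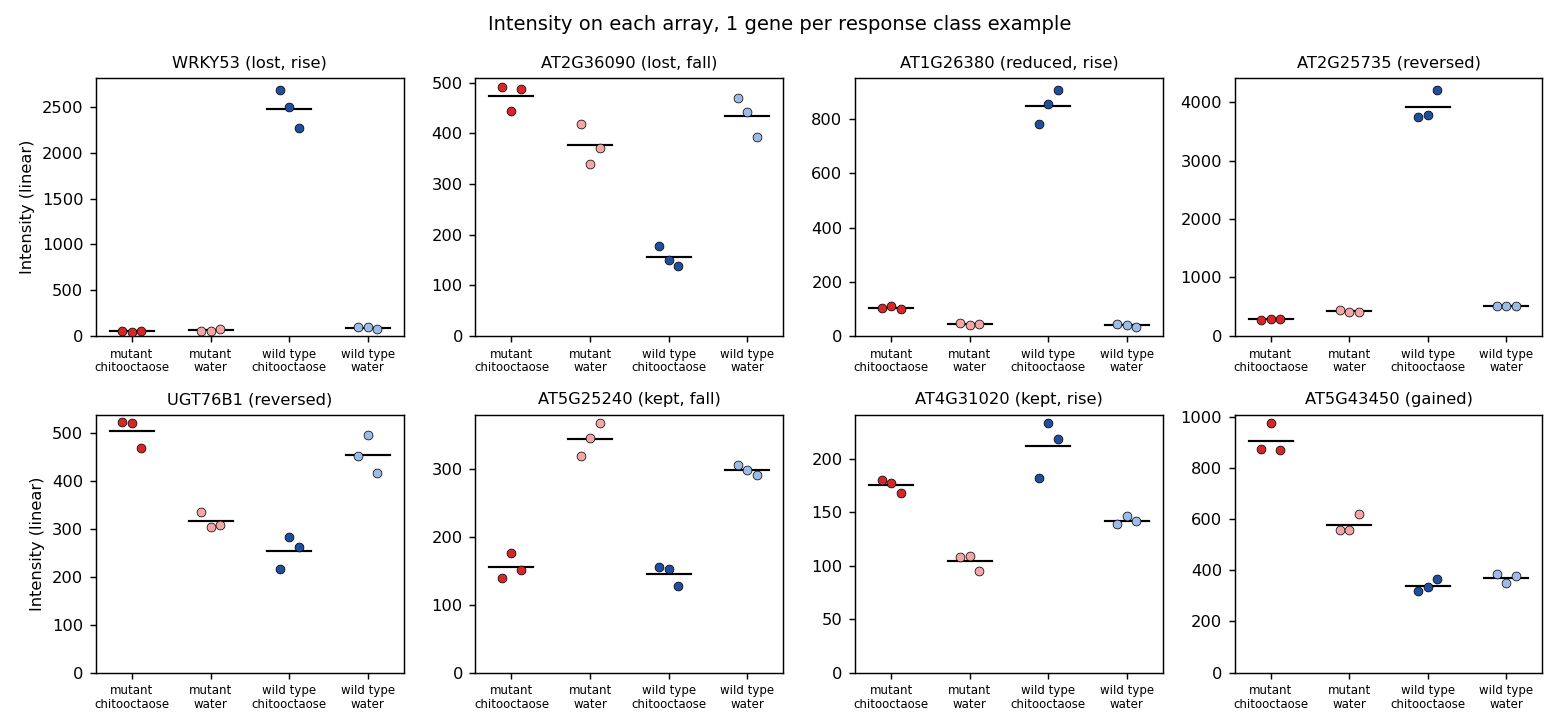
Linear intensity (y axis) of 8 genes on each of the 12 arrays by group (x axis); points are arrays and lines are group means (n = 3). WRKY53 is high only in wild type chitooctaose, UGT76B1 moves in opposite directions in the genotypes, and AT5G25240 falls in both.

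Kept responses were modest, with a median size of 0.50 in the mutant and 0.55 in wild type. AT5G25240 had 139, 175 and 151 in mutant chitooctaose against 319, 345 and 367 in mutant water, and 155, 153 and 127 in wild type chitooctaose against 306, 298 and 291 in wild type water. It fell in both genotypes, and the difference of -0.10 had a 95% interval from -0.42 to 0.21. AT3G21670, a nitrate transporter gene, and AT4G33960 fell by like amounts in both, with differences of 0.02 (interval -0.25 to 0.28) and 0.04 (-0.23 to 0.31). AT2G47440, coding for a tetratricopeptide repeat protein, fell by 0.71 in the mutant and by 0.92 in wild type. The 95% interval of the kept genes was typically 0.27 to either side (median), without adjustment for the number of probe sets. The threshold for a call is stricter, so differences larger than this could also go uncalled with these arrays.

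The 4 named of 48 kept rises were AT4G26460, AT2G04050, AT1G66100 and AT4G31020. AT4G31020, an alpha/beta hydrolase gene, read 180, 178 and 168 in mutant chitooctaose against 108, 109 and 95.3 in mutant water, and 182, 234 and 218 in wild type chitooctaose against 139, 146 and 141 in wild type water. Its responses were 0.67 ± 0.11 in the mutant and 0.52 ± 0.11 in wild type. AT1G66100, a thionin gene, had 1.06 ± 0.14 in the mutant and 0.59 ± 0.14 in wild type, and its difference of 0.46 had an interval from 0.04 to 0.89 without being called (adjusted p = 0.17). At least 2-fold in wild type were 8 kept probe sets, none tied to 1 gene. The steepest of these, chosen after its values were seen, fell by 1.96 in the mutant and by 2.22 in wild type.

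Gained responses were called in the mutant alone. AT5G43450, a 2-oxoglutarate-dependent oxygenase gene, measured 875, 974 and 869 in mutant chitooctaose against 559, 557 and 619 in mutant water, and 321, 333 and 364 in wild type chitooctaose against 386, 349 and 379 in wild type water. The mutant groups were apart, the wild type groups overlapped, and the interaction was 0.76 ± 0.12 (adjusted p = 0.00020). AT2G04070, coding for a MATE efflux protein, had 525, 493 and 504 in mutant chitooctaose against 227, 238 and 219 in mutant water, and 32.4, 39.1 and 26.3 in wild type chitooctaose against 37.7, 24.9 and 17.9 in wild type water. Its interaction of 0.90 ± 0.21 was lost with a pseudocount of 1 (adjusted p = 0.085), and its mutant level in water was higher by 2.54 ± 0.15. The related MATE gene AT2G04050 was higher in mutant water too (1.62), and was kept, since its wild type response of 0.63 ± 0.13 was called. AT3G53980 (0.77 ± 0.17) and AT1G19530 (0.75 ± 0.17) were the other gained rises named, and they left the class in 7 and 8 of 12 fits without an array.

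Of the 27 gained falls 4 are named. AT1G65870, coding for a dirigent-like protein, read 52.8, 46.9 and 49.9 in mutant chitooctaose against 98.4, 86.7 and 87.5 in mutant water, and 61.5, 59.2 and 67.8 in wild type chitooctaose against 62.2, 58.2 and 61.5 in wild type water. The mutant groups were apart and the wild type groups overlapped. AT3G28270 (interaction -0.64 ± 0.16), the lipid transfer family gene AT1G62510 (-0.59 ± 0.13) and the peroxidase gene AT5G64110 (-0.65 ± 0.18) were the other named ones. AT5G64110 left the class in 8 of the 12 fits that leave out an array, and 4 of the 12 made no interaction call.

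Interactions with neither response called mostly rest on 2 opposite moves, with a median size of 0.28 in the mutant and 0.23 in wild type. Of these, 3 of the 90 higher and 1 of the 133 lower stayed in the class in all 12 fits without an array. The same held for 984 of 1290 lost rises and 479 of 873 lost falls, 8 and 9 of 26 reduced rises and falls, 11 of 28 and 8 of 33 reversed, 16 of 48 and 24 of 65 kept, and 15 of 36 and 6 of 27 gained. The 4 named were dim, with no array above 75.3: UGT78D3 (-2.13 ± 0.64), AT2G19700 (-1.77 ± 0.54), AT2G15420 (1.32 ± 0.36) and AT1G53540 (1.22 ± 0.26). Their moves were larger than the class medians, such as -1.34 ± 0.45 in the mutant and 0.79 ± 0.45 in wild type for UGT78D3. UGT78D3, a flavonol arabinosyltransferase gene, read 2.81, 0.371 and 4.03 in mutant chitooctaose against 74.5, 2.78 and 43.1 in mutant water, and 4.18, 32.4 and 41.3 in wild type chitooctaose against 6.85, 4.92 and 6.64 in wild type water. The arrays spread widely in mutant water and in wild type chitooctaose. Leaving out an array ended the call in 10 of 12 fits for UGT78D3, 8 for AT2G19700 and 4 for AT2G15420. With a pseudocount of 1 the adjusted p was 0.060 for the interaction of UGT78D3 and 0.068 for the interaction of AT2G19700. AT1G53540, coding for a small heat shock protein, kept its interaction call in all 12 fits without an array but left the class in 3.

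Across gene lists, every called interaction among the WRKY, calmodulin-like and ubiquitin ligase genes was of the lost class, which holds 84.3% of all called interactions. The annotation ties only part of each family to a probe set, so the counts cover the measured members alone. Of 7 WRKY genes 3 had a called interaction, all lower, against 6.62% of all probe sets: WRKY53, WRKY22 (-2.27 ± 0.14) and WRKY6 (-0.92 ± 0.13). WRKY22 acts downstream of MAP kinases in defence. It read 383, 385 and 383 in mutant chitooctaose against 387, 495 and 486 in mutant water, and 2267, 2125 and 1803 in wild type chitooctaose against 462, 521 and 479.6 in wild type water. The other 4 ran from -0.51 to 0.32 without a call, and the list median was -0.51.

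Of 8 genes on the calmodulin-like list 5 were lower, against 6.62% of all probe sets, and none higher, with a median of -0.79. The list and its median take in AT4G35987 (-0.17, not called), which carries no CML symbol. CML42 (-2.66 ± 0.18) read 473, 554 and 372 in mutant chitooctaose against 678, 628 and 671 in mutant water, and 2279, 2978 and 3022 in wild type chitooctaose against 624, 559 and 626 in wild type water. The mutant arrays of CML42 did not overlap either, in the order opposite to wild type, but that response of -0.50 was not called (adjusted p = 0.056). CML23 (-1.87 ± 0.15), CML41 and CML38 were the others. Of 10 U-box and RING ubiquitin ligase genes, whose products tag proteins for degradation, 4 were lower and BRH1 was higher (0.52 ± 0.11), where 4.66% of all probe sets were higher. PUB23 (-2.999 ± 0.12), PUB24 (-2.92 ± 0.14) and PUB22 (-1.93 ± 0.14), which restrain pattern-triggered responses, led. BIK1, a receptor-like cytoplasmic kinase of pattern receptors, differed by -1.41 ± 0.11, and EFR, FER and AT5G18610 had no called interaction. The EDS1 partner gene SAG101 differed by -1.17 ± 0.23.

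Chitinases, which cut chitin, fell into several classes. Of 11 measured chitinase and chitinase-like genes 4 were lower and 1 higher, with a median of -0.16. Over all probe sets 6.62% were lower and 4.66% higher. AT4G01700 was lost (-1.98 ± 0.14), while AT1G02360 (-1.22 ± 0.13) and AT2G43620 (-1.13 ± 0.12) were reduced, both calls of the mutant response being fragile, as they left the class in 11 and 6 of 12 fits. Their baselines were unequal: in mutant water AT1G02360 was lower (-0.99) and AT2G43620 higher (1.01). With chitooctaose AT2G43620 had no called difference between the genotypes (-0.12). AT2G43620 stands beside a run of like genes on chromosome 2. By locus order, CHI was kept, AT2G43580 was not called, AT2G43590 had an interaction (-0.41 ± 0.10) with neither response called, AT2G43600 was unresolved, AT2G43610 was gained and AT2G43620 was reduced. CHI read 815, 769 and 656 in mutant chitooctaose against 502, 494 and 536 in mutant water, and 305, 328 and 273 in wild type chitooctaose against 263, 196 and 188 in wild type water. It rose in both genotypes by a like amount (0.53 and 0.47) and was higher in the mutant in either treatment. AT2G43610 read 427, 448 and 459 in mutant chitooctaose against 343, 351 and 314 in mutant water, and 593, 697 and 702 in wild type chitooctaose against 636, 665 and 678 in wild type water. Probe sets of such similar genes can share signal, which was not tested.

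Wall, auxin and detoxification genes had interactions in both directions, to be read against the 4.66% of all probe sets called higher and 6.62% called lower. Of 10 xyloglucan endotransglucosylase genes, which remodel the wall, 2 were lower, XTH18 (reduced, -1.20 ± 0.11) and XTH19 (-0.58 ± 0.11), and 2 higher, XTH26 (0.81 ± 0.17) and XTH20 (0.46 ± 0.14). In water the mutant was below wild type for XTH18 (-0.69), XTH19 (-0.72) and XTH26 (-0.92). With chitooctaose XTH26 had no called difference between the genotypes (-0.10). Of 17 expansin genes 3 were higher and EXLA3 was lower (-0.87 ± 0.21). EXLA3 was below wild type in mutant water (-0.68), and so were EXPA8 (-0.47) and EXPA18 (-0.62) of the higher ones. Of 12 AUX/IAA and GH3 genes 3 were higher, GH3.3 (0.96 ± 0.12) and GH3.17 (0.74 ± 0.13), which conjugate auxin, and the repressor gene IAA29 (0.76 ± 0.19). In mutant water GH3.17 was lower (-0.35), and GH3.3 (0.07) and IAA29 (-0.33) had no called difference. GH3.3 read 507, 597.5 and 550.3 in mutant chitooctaose against 415, 430.4 and 433 in mutant water, and 257, 293 and 242 in wild type chitooctaose against 423, 398 and 399 in wild type water. Its mutant response of 0.36 had adjusted p = 0.055, just short of a reversed response. Of 12 glutathione S-transferase genes 2 were higher, GSTU25 (0.82 ± 0.15) and GSTU28 (0.62 ± 0.16), and GSTU18 was lower (-0.72 ± 0.10). In mutant water GSTU28 was lower (-0.70), GSTU18 was higher (0.30) and GSTU25 had no called difference (-0.24). The 18 cytochrome P450 genes matched were CYP718 and otherwise CYP71B genes, so their share does not describe the family. Of these 18, 1 was called, CYP718 (0.82 ± 0.22), a share of 5.56% against 11.3% of all probe sets. CYP718 was lower in mutant water (-1.32), and its call was lost in 3 of 12 fits without an array.

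**Figure D5:**
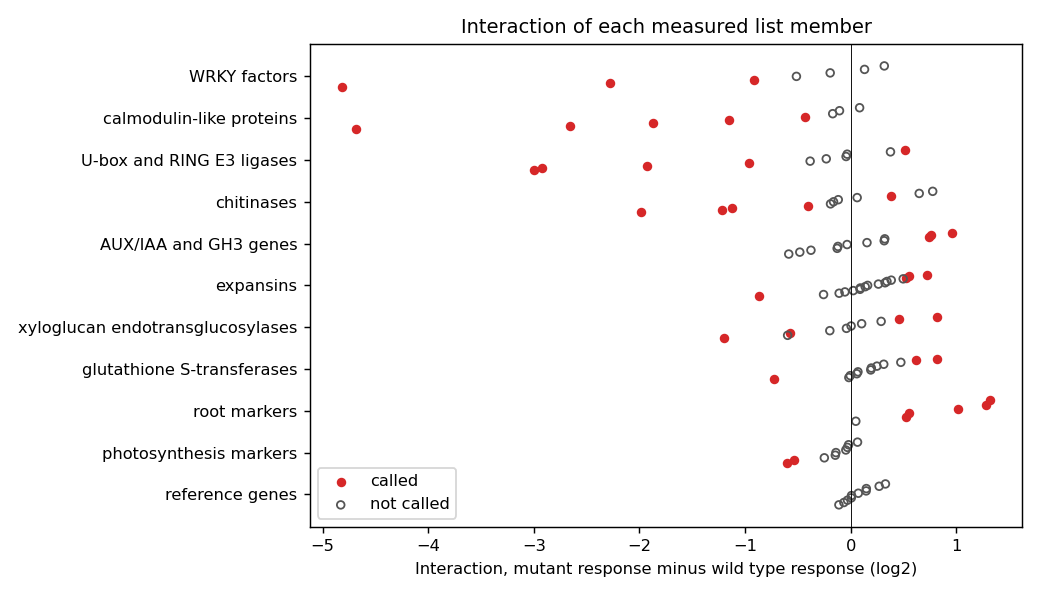
Interaction (x axis, log2) of each measured member of 11 gene lists (rows); filled points passed the threshold and open points did not. WRKY53 and CML37 lie farthest left, and root markers other than PYK10 lie to the right.

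Root markers were mostly among the higher interactions, and photosynthesis markers were not. Of 6 root and root hair markers 5 were higher, against 4.66% of all probe sets, among them the jacalin lectin genes AT1G52070 (1.32 ± 0.18), AT1G52060 (1.28 ± 0.11) and AT1G52050 (1.01 ± 0.17). PYK10, the remaining marker, had an interaction of 0.05 without a call (limma adjusted p = 0.83). The lectin genes have consecutive locus numbers, and shared signal between their probe sets was not tested. AT1G52060 read 596, 681 and 631 in mutant chitooctaose against 477, 475 and 508 in mutant water, and 699, 724 and 678 in wild type chitooctaose against 1328, 1423 and 1233 in wild type water. Wild type water stood far above the other 9 arrays. AT1G52060 left the reversed class in 5 of 12 fits without an array. The expansin genes EXPA18 and EXPA7 were marginal: EXPA18 lost its call in 6 of 12 such fits, and EXPA7 had an adjusted p of 0.0499. Summed over the 6 markers, intensity ran from 11581 to 12718 in mutant chitooctaose, 11150 to 12223 in mutant water, 11163 to 12459 in wild type chitooctaose and 13863 to 14623 in wild type water, with none at 0. The 9 photosynthesis markers summed to 83419 to 88300.1, 86589 to 91893, 85571 to 94832 and 83812 to 89643 in the same order, with PRK (-0.54 ± 0.13) and LHCB4.3 (-0.61 ± 0.15) lower. That is 2 of 9, where 6.62% of all probe sets were lower. LHCB4.3 rose by 1.03 in wild type and by 0.43 in the mutant, where the rise was not called (limma adjusted p = 0.060). The part of root RNA in the higher interactions was not tested. The 10 reference genes had interactions from -0.11 to 0.33, with a median of 0.04 and limma adjusted p of at least 0.078.

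Some genes with lost responses were neighbours in gene order. Of 503 lost rise genes with a measured neighbour, 83 (16.5%) had a lost rise next to them, and of all 8897 genes with a measured neighbour 658 (7.4%) did. For the 339 lost falls these figures were 36 (10.6%), against 445 (5%) of all. Adjacent genes are often related and were not separated by sequence here, so this is a description.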

How the data were processed

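The authors deposited 1 intensity per probe set and array on a linear scale, from biotinylated cRNA made from 8 ug of total RNA, per the labels' protocols. Summarisation, background correction and scaling are not given in the sources used here. After 64 control probe sets were left out, log2(value + 16) was taken of 22746, with no further scaling, and limma 3.58.1 under R 4.3.3 estimated the 4 group means in a single model. Its variances were moderated by eBayes with the trend option, which added 8.33 prior to 8 residual degrees of freedom. The number of arrays limits the precision. The annotation ties 13513 probe sets to 1 gene, 503 to several and 8730 to none, which are unnamed here. Of the 13513, 13436 matched the TAIR10.1 gene table, used for names and gene order only.

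Named genes are, among probe sets of 1 gene, 6 lost in each direction, 6 reduced rises and 4 falls, 4 kept, 4 reversed and up to 4 enhanced or gained in each direction and 2 with neither response called, ranked by interaction (kept by the smaller of both responses), plus up to 3 called members of each list. In lists, a gene with several probe sets was represented by the brightest on average. Members, classes and lists were chosen with earlier results of these data known, and 2 lists were corrected after a pattern matched clone names or missed locus tags. Lists of MAP kinases, ERF, jasmonate, ethylene and peroxidase genes had at most 2 measured members and no call, and those of calcium-dependent kinases, C2H2, NAC and MYB factors, TIR-NBS receptors, VQ proteins, phosphatases, SAUR, cell division and heat shock genes matched none, because the gene table holds symbols and synonyms but no descriptions. Genes of these families named in the report come from the classes, and every list covers only the members that could be matched. Promoter motifs were not analysed here. The settings varied were pseudocounts of 1 and 64, a filter on the dimmest 40%, median centring, quantile normalization, the replicate number as a block, no variance trend, a 2-fold minimum, classes by size and leaving out each array. The fit was tested on simulated data. Figures used matplotlib 3.10.9.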

Additional observations from a re-analysis of the deposited data

Results flagged for a closer look

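The response to chitooctaose differed between the genotypes for 2565 probe sets by the interaction test, and those named above are part of them. For 9 named genes each genotype also had a called response in the opposite direction to the other. The interactions were -4.28 for AR781, -3.96 for AT1G72920, -3.43 for AT2G25735 and -2.13 for AT5G63130, which rose in wild type. They were 2.59 for AT5G03230, 1.45 for UGT76B1, 1.41 for PDF1.2, 1.40 for AT2G37750 and 1.28 for AT1G52060, which fell in wild type. The 25S rRNA control probe set, outside the values tested, averaged 4312 in mutant chitooctaose against 1640 in mutant water. Its arrays read 3625, 6009 and 3304 in mutant chitooctaose against 1092, 1746 and 2082 in mutant water, and 1000.3, 2674 and 1424 in wild type chitooctaose against 2066, 2094 and 3407 in wild type water.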

How the results depend on the processing

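Most counts moved with the setting, the small classes most. Leaving out each array gave 2029 to 3215 interactions, 689 to 1136 higher and 1249 to 2079 lower, with 1103 to 1604 lost rises and 556 to 900 lost falls. Over the same fits reduced rises numbered 10 to 41 and falls 10 to 37, reversed 11 to 85 and 16 to 49, kept 25 to 67 and 31 to 104, gained 18 to 66 and 11 to 98, and those with neither response called 45 to 143 and 48 to 251. Quantile normalization gave 2042 higher interactions, 1630 lost falls, 53 reduced rises and 48 falls, 58 and 89 reversed, 88 and 109 kept, 73 and 57 gained, and 194 higher with neither response called. Median centring gave 53 and 42 reduced, 71 and 75 reversed, 88 and 107 kept, 69 and 65 gained, and 149 higher with neither called. Without the mean-variance trend there were 14 and 16 reduced, 16 and 15 reversed, 28 and 36 kept, and 75 lower with neither called. Requiring an interaction of at least 1 left 810, 166 higher and 644 lower. Classes by size of the residual share, among probe sets with 2-fold wild type responses only, held 279 lost rises and 50 lost falls, 320 rises with a mutant value of opposite sign, and 1 kept rise and 6 kept falls. The causes were not tested.

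The replicate number as a block gave 2652 interactions, and of the named genes AT2G19700 lost its call (adjusted p = 0.058). The 18 same-numbered pairs of arrays had correlations of their deviations from -0.129 to 0.223, median 0.051, with 6 over 0.1. The median for the 36 other pairs was -0.041, with 4 over 0.1, and 8 of 12 arrays correlated best with an array of their own number. Same-numbered pairs were thus over 0.1 more often than other pairs. Since not every same-numbered pair was over 0.1 and the labels give no shared batch, the numbers were not taken to pair the arrays in the main fit. Whether they mark a shared batch was not tested.

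Among named genes, leaving out arrays gave 913 values on the same side of the threshold, 36 that lost the call and 11 that changed sign. The sign changes were in kept genes near 0: the interaction of AT3G21670 ran between -0.0432 and 0.0918, the interaction of AT4G26460 between -0.0735 and 0.198, and the interaction of AT4G33960 between -0.0302 and 0.161. The number of arrays and their signal over background limit all counts.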
